A study of Mus musculus with 5 samples.

Results

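Frizzled proteins are the cell surface receptors of the Wnt ligands, and the mRNAs of 7 of them were measured here together with those of the co-receptors Lrp5 and Lrp6 and of Ctnnb1, which encodes beta-catenin. These 10 genes were taken by symbol from the array annotation, as every probe set assigned to 1 of them alone. This gave 23 probe sets of the 45101 on the array, between 1 and 3 for each gene, and no probe set shared by a member and another gene. The 10 genes stand among 18194 genes with a probe set of their own.

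The RNA came from mouse NIH/3T3 fibroblasts, an established line. For the immunoprecipitations below they carried the vectors pBSwitch and pSLHGC-MYC-AUF1 p42, for expression of the p42 isoform of AUF1 with an amino-terminal myc tag. AUF1 is a protein that binds AU-rich RNA. Ribonucleoprotein immunoprecipitates (RNP-IPs) were collected from extracts with agarose beads that carry an anti-c-myc antibody. For the 2 RNP-IPs labelled induced the cells had received mifepristone at 1 nM over 24 h, for the 2 labelled uninduced the same vector cells had not, and 1 array held total RNA, with no statement of whether its cells had been induced. The cells of the RNP-IPs carried both retroviral vectors and were a population selected with blasticidin, with mifepristone present during the selection. Whether the cells of total RNA carried the vectors is not stated in the study's methods. The study calls the RNP-IPs labelled induced independent, but nothing names separate cultures for the RNP-IPs of a group, so the p-values measure the spread between these arrays, which may be technical. In pooled extracts, less of an mRNA per cell and fewer cells that hold it cannot be told apart. An RNP-IP also does not tell whether AUF1 touched an mRNA directly.

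The values are log2 signals of robust multiarray average (RMA), so a difference of 1 is a 2-fold difference in signal. Signals under log2 5 are called not well above background, and 29.2% to 30.3% of probe sets per array reached this level. Of 27 measured marker genes of epithelial, blood, endothelial, neural, liver or pancreatic cells, 21 were under it in every array. The 6 exceptions were Epcam, at 6.66 to 6.99 in all arrays, Cd3e, Rbfox3, Sox10, Ins2 and the neural gene Map2. Map2 moved with the groups, at 4.01 and 4.80 under the induced label and 6.60 to 6.81 in the controls, and its part in the results below was not tested. All 12 fibroblast markers were above it in every array, among them Col1a1, Vim and Pdgfra. Hnrnpd, the gene of AUF1, ran against the labels on its brightest probe set, with 6.72 and 7.39 under the induced label, 11.35 and 11.85 under the uninduced label, and 10.60 as total RNA. On 1457568_at it ran the same way, at 3.71 and 3.61 under the induced label against 8.39, 8.52 and 7.03 in the controls. Hnrnpd was also lower under the induced label on 1458273_at, which was under log2 5 in 4 arrays. The place of its probe sets relative to the vector insert is not known here, so they are no check of the labels, and every direction below is that of the labels.

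In the canonical Wnt pathway a ligand joins a Frizzled receptor to Lrp5 or Lrp6. The complex recruits Dishevelled and Axin, and beta-catenin escapes the destruction complex and enters the nucleus as a partner of the TCF and LEF transcription factors. Frizzled receptors fall by sequence into subgroups of close relatives, with Fzd1, Fzd2 and Fzd7 in one, Fzd5 and Fzd8 in another, Fzd6 beside Fzd3, and Fzd4 beside Fzd9 and Fzd10. In fibroblasts the pathway bears on growth and on matrix production.

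The first comparison asked which of these mRNAs were more or less abundant in RNP-IPs after AUF1 p42 induction, and set the 2 RNP-IPs labelled induced against 3 controls, namely total RNA and the 2 RNP-IPs labelled uninduced. The threshold for a call, a lenient one taken from the study's methods, was a difference of 3-fold or more with an adjusted p below 0.5 from limma. Fzd4 was called higher, Fzd5 was called lower and 8 of the 10 genes were not called. Among all 18194 genes 3.68% were called in either direction, 1.32% higher and 2.36% lower. Of the 6401 genes with a mean signal of at least log2 6, 174 were called higher and 370 lower. No member had an adjusted p under 0.05 from limma, and the lowest was 0.194. An unadjusted p under 0.05 was found for 6 of the 10 genes, against 13.4% of all genes and 25.7% of those with a mean signal of at least log2 6, and 1 of the 6 was Lrp5, which was under the background level in every array. Fzd4 stands in the study's own list, which was made from these arrays, so its call is not independent evidence.

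**Figure D1:**
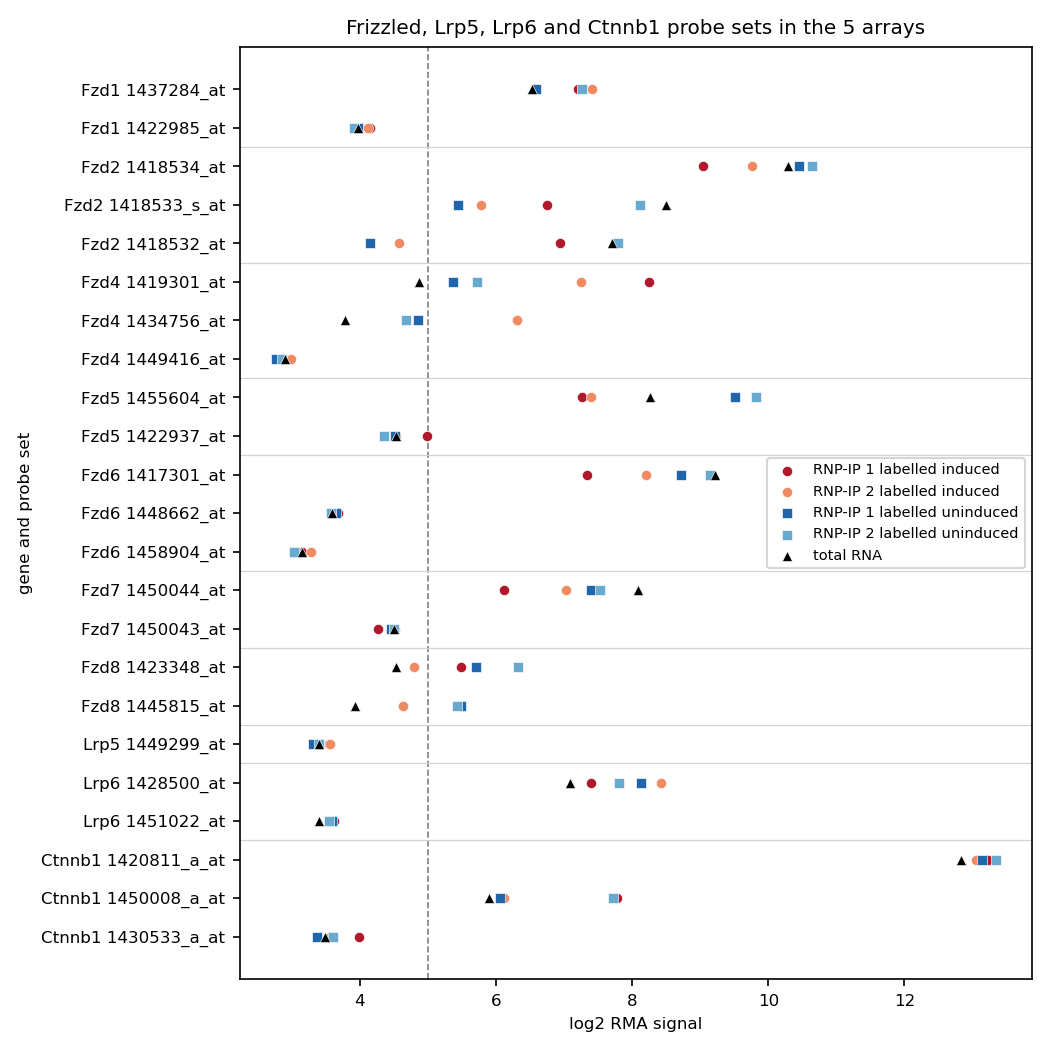
Log2 RMA signal (horizontal axis) of the 23 probe sets, 1 per line, grouped by gene with the brightest first. Each marker is 1 array, circles RNP-IPs labelled induced, squares RNP-IPs labelled uninduced and triangles total RNA. The dashed line is the background level of log2 5, and 9 probe sets lie under it in every array. On the first line of Fzd4 both circles lie to the right of the controls, and on the first lines of Fzd2, Fzd5, Fzd6 and Fzd7 both lie to the left.

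Fzd4 encodes the receptor that, beside Wnt ligands, takes up Norrin in the growing blood vessels of the retina. Its brightest probe set, 1419301_at, read 8.25 and 7.25 under the induced label, 5.37 and 5.72 under the uninduced label, and 4.87 as total RNA. The groups did not overlap, and the lower array of the induced label stood above the highest control. The means were 7.75 ± 0.71 (SD, n = 2) and 5.32 ± 0.43 (SD, n = 3), a 5.39-fold enrichment on the linear scale (log2 2.43, SE 0.43, 95% interval 1.24 to 3.62, adjusted p = 0.194 from limma). Total RNA was under the background level of log2 5, and both RNP-IPs labelled uninduced were under log2 6. The size of this fold thus rests in part on controls near background. Over the alternative fits that kept both RNP-IPs labelled induced, the adjusted p from limma ran from 0.0449 to 0.429. The lowest came with only probe sets of a mean signal of at least log2 6 tested. The direction was the same in every alternative fit. Against the RNP-IPs labelled uninduced alone the enrichment was 4.61-fold (log2 2.20, adjusted p = 0.288), and this call ended without RNP-IP 1 labelled uninduced (log2 2.03, adjusted p = 0.501).

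A further probe set of Fzd4, 1434756_at, was also called higher. It read 6.31 in each array under the induced label, against 4.86, 4.68 and 3.78 for the controls. All 3 of these controls lay under the background level, so the fold is a bound of at least 2.48-fold with each control raised to log2 5, beside a measured log2 difference of 1.87 (SE 0.38, adjusted p = 0.234 from limma). With a background level of log2 6 the bound fell from 1.31 to 0.31 on the log2 scale. The last probe set, 1449416_at, was between 2.77 and 3.00 in all 5 arrays, under the background level throughout, and gave no direction. Of all 23 member probe sets, 2 were called higher, both of Fzd4, and 1 lower, where 1.16% and 1.66% of all probe sets were called (2.82% in either direction). Against the RNP-IPs labelled uninduced alone, both under the background level, 1434756_at was at least 2.48-fold higher and was not called.

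Fzd5, a receptor needed in the placenta and in eye development, was the member called lower. Its probe set 1455604_at read 7.26 and 7.40 under the induced label, 9.52 and 9.81 under the uninduced label, and 8.26 as total RNA. Both RNP-IPs labelled induced lay under every control, with total RNA between the others. The log2 difference from the 3 controls was -1.87 (SE 0.54, 95% interval -3.37 to -0.36, adjusted p = 0.356 from limma), that is 3.65-fold lower. Against the RNP-IPs labelled uninduced alone it was -2.34 (SE 0.14, adjusted p = 0.126), 5.05-fold lower. The call against the 3 controls ended without any 1 of the 4 RNP-IPs, at log2 differences of -1.93 to -1.56, and held without total RNA. Against the RNP-IPs labelled uninduced alone Fzd4 and Fzd5 were the called members, 1 higher and 1 lower, beside 1.38% and 2.65% of all genes (4.03% in all). This comparison uses 4 of the 5 arrays of the first, with total RNA alone left out, so it is no separate evidence. There the arrays did not overlap in 2 members higher and 5 lower, against 16.9% and 18.5% of all genes. Of the 6401 genes with a mean signal of at least log2 6, 188 were called higher and 407 lower there. The arrays did not overlap in 1427 of them higher and 2127 lower. A dimmer probe set of Fzd5, 1422937_at, was under the background level in every array, at 4.36 to 4.98.

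Fzd8, the closest relative of Fzd5, was dim. Its probe set 1423348_at read 5.49 and 4.80 under the induced label, 5.71 and 6.32 under the uninduced label, and 4.54 as total RNA. The RNP-IPs labelled induced lay between total RNA and the other RNP-IPs, so the difference from the 3 controls was small against its spread (log2 -0.38, SE 0.63, 95% interval -2.13 to 1.38, adjusted p = 0.85 from limma). The other probe set, 1445815_at, kept the same order at 4.63 in each array of the induced label, 5.49 and 5.42 under the uninduced label, and 3.93 as total RNA. On it the RNP-IPs labelled uninduced were at least 1.37-fold above those labelled induced, which were under the background level.

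Fzd2, Fzd7 and Fzd1 are close relatives that signal through beta-catenin in many tissues. On the brightest probe set of Fzd2, 1418534_at, the signals were 9.03 and 9.77 under the induced label, 10.46 and 10.64 under the uninduced label, and 10.29 as total RNA. The groups did not overlap, and the log2 difference was -1.07 (SE 0.27, 95% interval -1.81 to -0.32, adjusted p = 0.294 from limma), or 2.09-fold, under the fold needed for a call. Fzd7, on 1450044_at, read 6.13 and 7.03 under the induced label, 7.40 and 7.52 under the uninduced label, and 8.09 as total RNA. Here too both lay under every control, with a log2 difference of -1.09 (SE 0.38, adjusted p = 0.448).

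Fzd1 did not share that order. Its probe set 1437284_at read 7.20 and 7.41 under the induced label, 6.58 and 7.27 under the uninduced label, and 6.52 as total RNA, and the groups overlapped. The log2 difference was 0.52, with a 95% interval of -0.26 to 1.30 that holds 0 (adjusted p = 0.677 from limma). The other probe sets of Fzd1 and Fzd7 were under the background level in every array.

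Fzd6, which with Fzd3 orients hairs and other structures through the planar polarity pathway, read 7.34 and 8.20 under the induced label, 8.72 and 9.14 under the uninduced label, and 9.22 as total RNA on 1417301_at. Both RNP-IPs labelled induced lay under the 3 controls, by a log2 difference of -1.26 (SE 0.33, 95% interval -2.19 to -0.33, adjusted p = 0.315 from limma), and it was not called. It was called without RNP-IP 2 labelled induced, at -1.69. Both other probe sets of Fzd6 were under the background level in every array.

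Taking the 7 Frizzled genes by their brightest probe sets, Fzd4 and Fzd1 had a difference above 0 and Fzd2, Fzd5, Fzd6, Fzd7 and Fzd8 one below 0. Their median log2 difference was -1.07, against 0.002 over all 18194 genes and -0.15 over the 6401 genes with a mean signal of at least log2 6. In 4 of the 10 members both RNP-IPs labelled induced lay under all controls, where 13.4% of all genes did so, and in 2, Fzd4 and Lrp5, above them, where 12.0% did so. Of the 6401 genes with a mean signal of at least log2 6, 1608 lay under all controls and 1046 above them. Within each array, Fzd4 minus the mean of the other 6 Frizzled genes was 1.18 and -0.18 under the induced label, -2.69 and -2.74 under the uninduced label, and -2.95 as total RNA. These within-array values depend on the probe sets in level, and only their change between groups is read. The change was 3.29 on the log2 scale against the 3 controls, or 3.21 with total RNA left out. Fzd4 was singled out here because it was called higher, so this is a description with no test.

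Neither co-receptor was called. Lrp6, which is phosphorylated on ligand binding and then docks Axin, read 7.39 and 8.43 under the induced label, 8.13 and 7.81 under the uninduced label, and 7.09 as total RNA on 1428500_at. The groups overlapped, with a log2 difference of 0.23 (SE 0.48, 95% interval -1.12 to 1.59, adjusted p = 0.881 from limma), so that a 2-fold change in either direction lies within the interval. Its other probe set was under the background level in every array. Lrp5, known for its role in bone mass, has 1 probe set, 1449299_at, at 3.31 to 3.56 in the 5 arrays. All of these signals are not well above background, and although both RNP-IPs labelled induced lay above the controls, no fold is given for it.

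Ctnnb1 encodes beta-catenin, which acts in the nucleus as the effector of the pathway and at the membrane in cadherin junctions. On its brightest probe set, 1420811_a_at, it read 13.23 and 13.05 under the induced label, 13.14 and 13.35 under the uninduced label, and 12.82 as total RNA. The 5 signals lay close together, and the log2 difference was 0.04 (SE 0.18, adjusted p = 0.954 from limma). Its 95% interval of -0.47 to 0.55 leaves out a 2-fold change in either direction, while that of Fzd1 leaves out a 2-fold decrease.

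**Figure D2:**
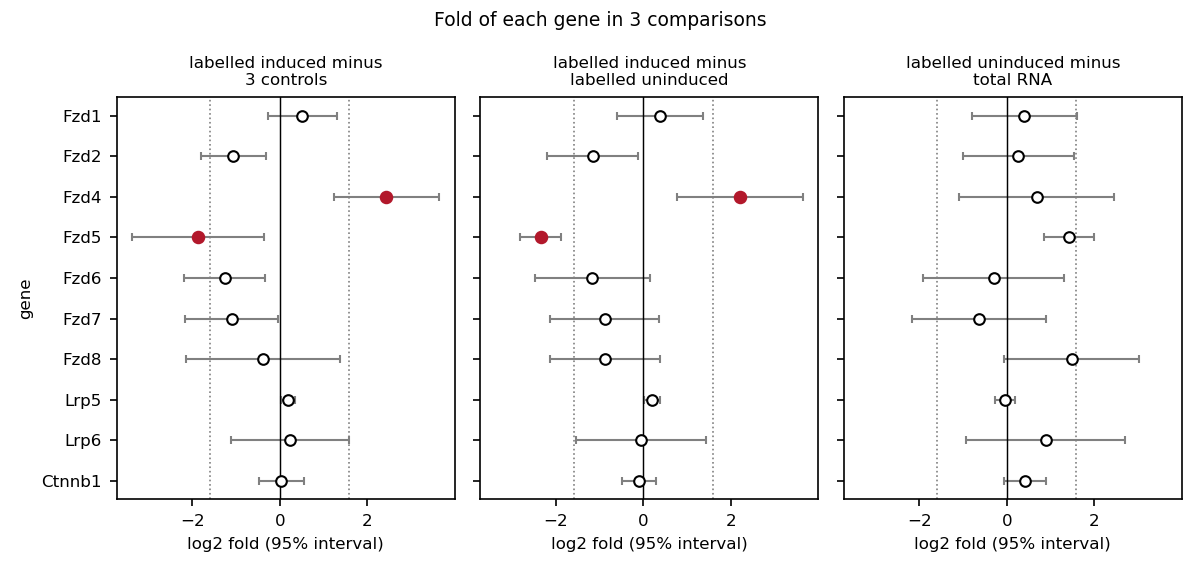
Log2 fold (horizontal axes) of the 10 genes, each by its brightest probe set, in 3 comparisons, with 95% intervals from limma. Filled red points were called, open points were not, and dotted lines mark a 3-fold difference. Fzd4 (2.43 and 2.20) and Fzd5 (-1.87 and -2.34) were called against the 3 controls and against the RNP-IPs labelled uninduced, and no gene was called in the last panel. The panels share arrays.

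Fzd2 and Ctnnb1 each have probe sets that followed individual arrays and not the labels. Probe set 1418532_at of Fzd2 read 6.94 and 4.57 under the induced label, 4.15 and 7.79 under the uninduced label, and 7.71 as total RNA. The low arrays were thus RNP-IP 2 labelled induced and RNP-IP 1 labelled uninduced. Probe set 1418533_s_at of the same gene had the same 2 arrays lowest, at 5.78 and 5.44, against 6.75 to 8.50 in the others. On both, the RNP-IPs labelled uninduced differed from each other by more than the groups did, and the SE of the log2 difference was 1.55 and 1.13.

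Probe set 1450008_a_at of Ctnnb1 split the arrays in a like manner, at 7.79 and 7.72 in the pair with the higher Gapdh signals (RNP-IP 1 labelled induced, RNP-IP 2 labelled uninduced), at 6.12 and 6.06 in the opposite pair and at 5.90 as total RNA. The array control at the 5' end of Gapdh moved with these values across the 4 RNP-IPs, but not in total RNA, where the Ctnnb1 probe set was lowest. The control was at 8.18 and 7.81 in the former pair, at 4.24 and 3.65 in the latter and at 6.93 as total RNA. The array control at the 5' end of Actb was at 11.35 and 9.66, at 7.17 and 5.83, and at 8.50 in the same order. The part of what these controls show in the values of the members was not tested. Without both arrays of low Gapdh 5' signal the log2 difference from the controls was 2.96 for Fzd4. It was -1.77 for Fzd5, -1.85 for Fzd6 and -1.68 for Fzd7. That fit left 1 RNP-IP labelled induced and 1 residual degree of freedom, so no call is read from it.

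**Figure D3:**
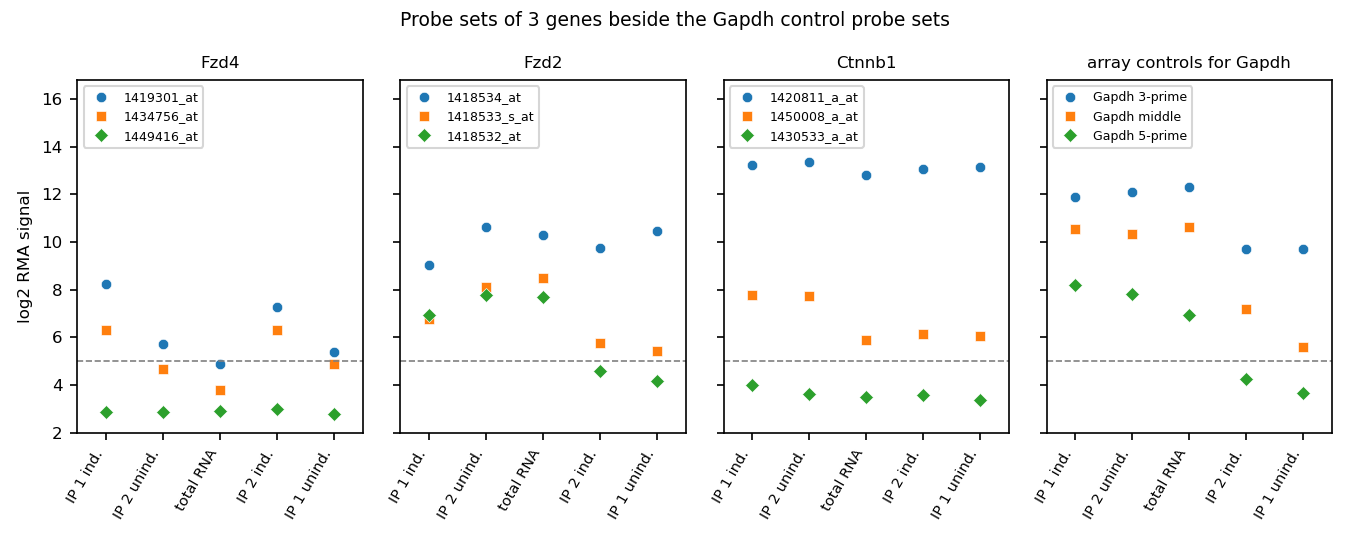
Log2 RMA signal (vertical axis) in the 5 arrays (horizontal axis) for all probe sets of Fzd4, Fzd2 and Ctnnb1 and for the 3 Gapdh control probe sets. IP stands for RNP-IP, ind. for labelled induced and unind. for labelled uninduced, and the 2 arrays with a low Gapdh 5' signal are placed last. The lower probe sets of Fzd2 fall in these 2 arrays, to 4.57 and 4.15 on 1418532_at, and the 2 brighter ones of Fzd4 are highest in both RNP-IPs labelled induced.

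The RNP-IPs labelled uninduced were next set against total RNA, which asks how close the material that adheres to the beads without induction is to the mRNA of the cell. No member was called in either direction, where 2.62% of all genes were called, and 1 of 10, Fzd5, had an unadjusted p under 0.05 from limma, against 13.0% of all genes. Fzd5 was 2.65-fold higher on the beads (log2 1.41, SE 0.18, adjusted p = 0.236 from limma). Fzd8, on 1423348_at, was at least 2.02-fold higher, since total RNA was under the background level (adjusted p = 0.471). Fzd4, on 1419301_at, was at least 1.46-fold higher on the beads, with total RNA under the background level (adjusted p = 0.855). Fzd7, with a log2 difference of -0.63, and Fzd6, with -0.30, were on the other side of 0 with intervals that hold 0. Lrp6 (0.88), Ctnnb1 (0.42), Fzd1 (0.40) and Fzd2 (0.26) had log2 differences above 0, also with intervals that hold 0. The single total RNA array is assumed here to vary like the RNP-IPs. The last 2 comparisons share the RNP-IPs labelled uninduced, so a gene high in those 2 arrays, as Fzd5 was, comes out lower in one and higher in the other from the same values.

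The rest of the pathway was read from a list of 112 other Wnt genes, of which 109 have a probe set of their own. In the RNP-IPs labelled induced none of these was called higher, 2 were called lower and 107 were not called, against 1.32% and 2.36% of all genes. Their median log2 difference was -0.01, and -0.46 over the 37 with a mean signal of at least log2 6, beside -0.15 over all genes of that level. No gene of the list had an adjusted p under 0.05 from limma. An unadjusted p under 0.05 was found for 19 of the 109 (17.4%), against 13.4% of all genes. Of the 37 brighter ones 29.7% had one, against 25.7% of all genes of that level. The called genes, Dvl1 and Gsk3b, are both among those 37, and 370 of the 6401 genes of that level were called lower. Dvl1, a Dishevelled protein recruited by Frizzled, read 7.23 and 7.85 under the induced label, 8.89 and 9.53 under the uninduced label, and 10.84 as total RNA (log2 difference -2.21, SE 0.68, adjusted p = 0.384). Gsk3b, the kinase that marks beta-catenin for destruction, read 8.10 and 8.60, then 10.72 and 10.47, and 9.69 in the same order (log2 difference -1.94, SE 0.39, adjusted p = 0.229).

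Those calls held on 1 probe set each. The other probe set of Dvl1 was near background with a log2 difference of -0.11, and of the 5 other probe sets of Gsk3b 1451020_at had a difference of 0.43 that was not called. The call of Dvl1 ended when RNP-IP 1 labelled induced (-1.90) or RNP-IP 2 labelled uninduced (-2.32) was left out, and that of Gsk3b likewise without the latter array (-1.85). Of the 16 other genes of the cytoplasmic relay and destruction complex none was called, with the kinase Csnk1a1 at -0.47 and Fbxw11, which recognises marked beta-catenin, at -0.78. With each gene of the list taken by its most changed probe set 4 were called lower.

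By role, the brightest genes of the list gave these values. Of 8 other Frizzled and alternative receptors none was called. Ryk, a Wnt receptor with a kinase-like domain, had a log2 difference of 0.61 and Fzd3 one of 0.38. Among 11 receptor partners, Rspo2 and Rspo3, secreted R-spondins that keep Frizzled receptors on the cell surface, were called in the comparison of uninduced label and total RNA, both higher on the beads, where 1.26% of all genes were called higher and 1.36% lower. Rspo2 read 12.22 and 12.68 against 10.26 (log2 difference 2.19, adjusted p = 0.249), and Rspo3 11.10 and 11.04 against 8.41 (2.66, adjusted p = 0.266). The 1 gene of the list called lower on the beads without induction was Dvl1 (log2 difference -1.63, adjusted p = 0.428), which was also called lower in the first comparison, where total RNA is one of the controls. In the RNP-IPs labelled induced Rspo3 was at 9.05 and 9.82, between the other groups, and it was called lower than in those labelled uninduced (-1.63, adjusted p = 0.286). The other genes of the list called lower there were Dvl1 (-1.67, adjusted p = 0.321 from limma) and Gsk3b (-2.24, adjusted p = 0.17), and none was called higher. Of all genes 2.65% were called lower there and 1.38% higher. Znrf3, a ligase that removes Frizzled from the surface, had a difference of -1.56 from the 3 controls (adjusted p = 0.376), just under a 3-fold change.

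In the first comparison no Wnt ligand or releasing factor was called among 21, by their brightest probe sets. Wls, which carries Wnt proteins to the surface, had a log2 difference of -0.38 and Wnt7a one of 0.35 on their brightest probe sets. A dimmer probe set of Wnt5a, 1436791_at, read 3.77 and 3.84 under the induced label against 6.50 and 6.05 under the uninduced label and 7.20 as total RNA. It was called lower, by at least 3.00-fold (adjusted p = 0.141 from limma), while the probe set that represents Wnt5a gave a difference of -0.05 (adjusted p = 0.954 from limma). That dimmer probe set, Znrf3, Axin2, Ccn5 and Myc were singled out after their values were seen. Of 15 inhibitors none was called, and Apcdd1, a membrane inhibitor of Wnt signals, was at -0.26, while Sfrp5, a secreted one, was near the background level. Neither were any of 13 nuclear partners, with Tcf7l1 at 0.68 and Tle4 at -0.49, nor any of 9 planar polarity genes, with Daam1 at -0.47 and Vangl2 at -1.14.

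The 7 target genes, which are used as readouts of the pathway, were not called either, and 5 of them had a difference below 0 (median -1.08). So had 49.3% of all genes and 58.0% of those with a mean signal of at least log2 6. Nkd1, 1 of those 5, and Sp5 were under the background level in every array and give no direction. Pathway activity was not measured. Ccn5, with the lowest adjusted p of the list, read 5.04 and 5.16 under the induced label against 6.02, 6.35 and 6.32 in the controls (log2 difference -1.13, SE 0.13, adjusted p = 0.118 from limma), a fold under that needed for a call. Myc was at -1.38 (adjusted p = 0.654). In the other direction, Axin2 was at 5.85 and 5.22 under the induced label against 4.70, 4.74 and 4.65 in the controls, which are not well above background, so it was at least 1.45-fold higher (adjusted p = 0.298 from limma). Ccnd1, encoding cyclin D1, had a difference of -1.08 and Ccn4 one of -2.10, with adjusted p = 0.685 and 0.683. Ccn4 was low in RNP-IP 1 labelled uninduced as well, at 6.13 against 8.58 in RNP-IP 2. Ctnna1, the alpha-catenin that ties beta-catenin to actin, was at -0.20 and Cdh11, a mesenchymal cadherin, at 0.25, among 7 catenin and cadherin genes of which none was called.

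**Figure D4:**
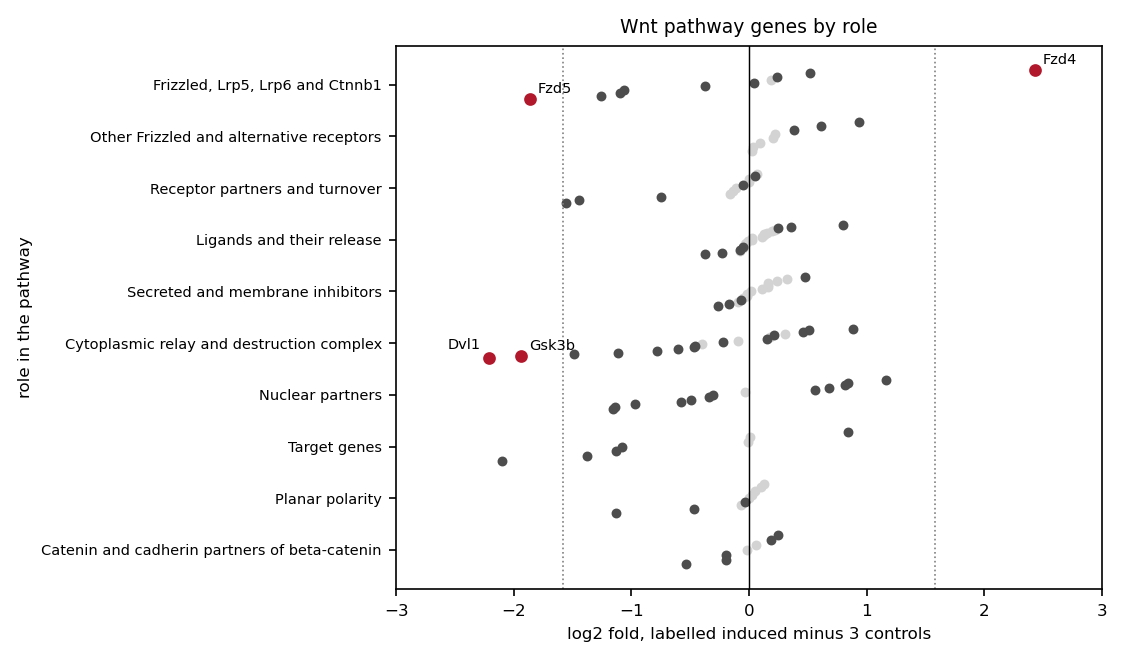
Log2 fold of the RNP-IPs labelled induced over the 3 controls (horizontal axis) for the 10 genes and for 109 other Wnt pathway genes by role (vertical axis), 1 point per gene. Red points with names were called, light grey points were under log2 5 in every array, and dotted lines mark a 3-fold difference. Fzd4 is the called gene on the right, and Dvl1, Gsk3b and Fzd5 are those on the left.

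Fzd4 was last compared in profile with all other genes, by the distance of log2 values centred on each probe set's mean over the 5 arrays. Of 18184 genes the nearest were Mturn (distance 0.47), Adipor1 (0.58) and Bmp4 (0.59). Mturn read 7.06 and 5.83 under the induced label and 4.57, 4.57 and 3.54 in the controls, all under the background level, so its distance and rank rest in part on values not well above background. Adipor1, an adiponectin receptor, read 11.17 and 9.92 under the induced label, 7.65 and 8.18 under the uninduced label, and 7.81 as total RNA. Bmp4, a ligand of the TGF-beta family, read 8.72 and 7.90, then 6.15 and 6.98, and 5.62 in the same order. The likeness rests on 5 values per gene.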

How the data were processed

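RNA was amplified by two-cycle labelling and hybridized to Affymetrix Mouse 430 2.0 arrays. The log2 values were deposited by the authors after RMA normalization, with no version given in the sources used here, and were taken as they stand. The number of arrays, 5, limits the precision.

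All 45101 probe sets entered limma 3.58.1 (R 4.3.3, lmFit, then eBayes; 3 residual degrees of freedom, or 2 with 3 groups). Benjamini-Hochberg adjustment ran over all of them. Each gene was taken by its brightest probe set on average. Named were all members, called genes of the Wnt list and the brightest 1 or 2 of each role, Hnrnpd, and the 3 profiles nearest to Fzd4. Members, lists and tests were chosen with earlier results of these data known. The first comparison, tested on simulated data for 45101 probe sets, recovered 88 of 100 probe sets given a 4-fold change. A further 100 had been given a 16-fold change, and 17 unchanged ones were called. In this simulation the noise was independent between arrays, and the spreads were shuffled over all probe sets. Bright probe sets could thus take the spread of dim ones, so these counts do not give the recovery or false calls for the members.

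Alternatives were median centring, cyclic loess, a mean signal of at least log2 6, a trend in the spread, each gene's most changed probe set, other thresholds, each array left out and the replicate number as a block. Gene names came from an array annotation of 2016.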

Additional observations from a re-analysis of the deposited data

How the results depend on the processing

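In the first comparison the count of 1 member higher held except at an adjusted p under 0.05 (0), and stayed at 1 without any single array. That of 1 member lower became 0 with the replicate block (Fzd5, adjusted p = 0.574 from limma) and at an adjusted p under 0.05. It became 4 at a fold of at least 2, and ran from 0 to 1 with single controls left out. Leaving out both arrays of low Gapdh 5' signal, an alternative chosen after seeing the data, left 1 RNP-IP labelled induced. No count is read from that fit. Against the RNP-IPs labelled uninduced alone, the member higher was lost (0) with the replicate block (Fzd4, adjusted p = 0.58 from limma) and at an adjusted p under 0.05, and numbered 0 to 1 with single arrays left out. The member lower was lost (0) at an adjusted p under 0.05, with 3 at a fold of at least 2 and 1 to 2 with single arrays left out. Against total RNA 2 members were higher at a fold of at least 2, and 0 to 1 with single arrays left out. Of the Wnt list, 1 gene was lower with the replicate block, 4 with each gene's most changed probe set, 0 at an adjusted p under 0.05 and 9 at a fold of at least 2 (1 higher), and 1 to 5 lower and 0 to 1 higher with single arrays left out (5 without RNP-IP 2 labelled induced or RNP-IP 1 labelled uninduced, 1 without RNP-IP 1 labelled induced or RNP-IP 2 labelled uninduced). The sign turned for some values. Fzd8 ran from -0.87 to 0.022 with single arrays left out and was 0.060 without both arrays of low Gapdh 5' signal. Lrp6 ran from -0.28 to 0.75 and was -0.056 without both arrays, and against the RNP-IPs labelled uninduced it ran from -0.58 to 0.46 and was 0.013 with cyclic loess. Ctnnb1 ran from -0.10 to 0.16, and against the RNP-IPs labelled uninduced from -0.20 to 0.0022, with 0.29 on its most changed probe set, which was under the background level in every array and so gives no direction. Fzd2 against total RNA was -1.74 on its most changed probe set, 1418532_at, which was under the background level in 2 arrays. The deviations of same-numbered RNP-IPs from their group means correlated at -0.50 over all probe sets. Over those with a mean signal of at least log2 6 the correlation was -0.669, so the numbers do not pair the RNP-IPs. A block of crossed numbers, chosen after seeing the data, moved none of these counts by over 1.5 times. Signals under log2 5 limit Lrp5, Fzd8 and the dimmer probe sets.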
